A study of Homo sapiens with 41 samples.

Results

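A group of 10 genes of the actin and microtubule cytoskeleton was examined for Elongin A peaks: ACTB, ACTG1, TUBA1A, TUBA1B, TUBA1C, TUBB, TUBB4B, CFL1, PFN1 and TMSB10. They were listed by name as short, highly transcribed genes, and are 10 of the 20162 protein-coding genes of the annotation. A peak was assigned to a gene when it overlapped the annotated gene or the 1 kb on either side. By this rule 17 of the 11244 deposited peaks lay at these genes. The canonical transcripts, which were the MANE Select transcripts, spanned 1016 to 9519 bp. The annotated genes, over which peaks were assigned, can be longer. They spanned 85865 bp at TUBA1C, 39005 bp at CFL1, 37494 bp at ACTB and 14435 bp at ACTG1. The rule names the genes and uses no peak value, but the list was drawn up with earlier results of these data known, which limits what the counts below can show.

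The peaks came from DLD1, a human colon cancer cell line, which was untransfected (wild type, with no siRNA) and fixed with formaldehyde in all 7 of the samples used, out of 41 in the series. CUT&RUN, in which an antibody directs a nuclease to cut and release the chromatin around a protein, was performed with a goat antibody in 2 replicates and with a mouse antibody in 1 sample, each with 1 IgG control. Per the labels the control of the mouse antibody list was mouse IgG, whereas the study's methods name only goat IgG, so the control behind its fold enrichments is uncertain. For ChIP-seq there was 1 Elongin A sample and 1 input control. The 3 resulting lists held 8720, 2338 and 186 peaks. For every peak a list gives 1 fold enrichment, relative to the local background of the control, and 1 −log10 q-value, with no column for a replicate and no read total. Therefore the values below carry no replicate error, their depth is unknown, and no test between samples was possible. Values of different lists were not compared in size, because antibody and control differ between them, and ranks count from 1 at the highest fold enrichment within 1 list.

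Actin and tubulin are the building blocks of microfilaments and microtubules. ACTB and ACTG1 encode the cytoplasmic actins beta and gamma, the TUBA1 genes encode alpha-tubulins, and TUBB and TUBB4B encode beta-tubulins, which pair with alpha-tubulin in the dimer that polymerizes. Cofilin 1 (CFL1) severs and depolymerizes actin filaments, profilin 1 (PFN1) binds actin monomers and promotes the exchange of their nucleotide, and thymosin beta 10 (TMSB10) sequesters monomers. Elongin A is the transcriptionally active subunit of the Elongin complex, which raises the rate of elongation by RNA polymerase II (RNAPII) in vitro. Transcription of the cytoplasmic actin genes is regulated by serum response factor, which binds the CArG box.

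The goat antibody list held a peak at 8 of the 10 genes, all except ACTB and TUBA1A, against 21.7% of all protein-coding genes. The mouse antibody list held a peak at 4 of the 10, TUBA1B, TUBA1C, TUBB4B and CFL1, against 7.79% of all protein-coding genes. All 4 also had a goat antibody peak, and 4.75% of protein-coding genes had a peak in both lists. The ChIP-seq list held none at these genes, against 0.784% of protein-coding genes. Gene length enters these shares, since a longer gene offers more room for a peak. Among protein-coding genes no longer than TUBA1C, at 85865 bp, 17.5% had a goat antibody peak and 6.17% a mouse antibody peak. A narrower setting was chosen after the data were seen. It took 5786 protein-coding genes whose canonical transcript was no longer than 9519 bp, with peaks counted over that transcript and 1 kb either side. Of these, 12.6% had a goat antibody peak and 4.15% a mouse antibody peak. Counted in the same way, 7 of the 10 genes had a goat antibody peak and 4 a mouse antibody peak. The RNAPII ChIP-seq and RNA measurements of the series were not analysed here, so the transcription of these genes was not measured.

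**Figure D1:**
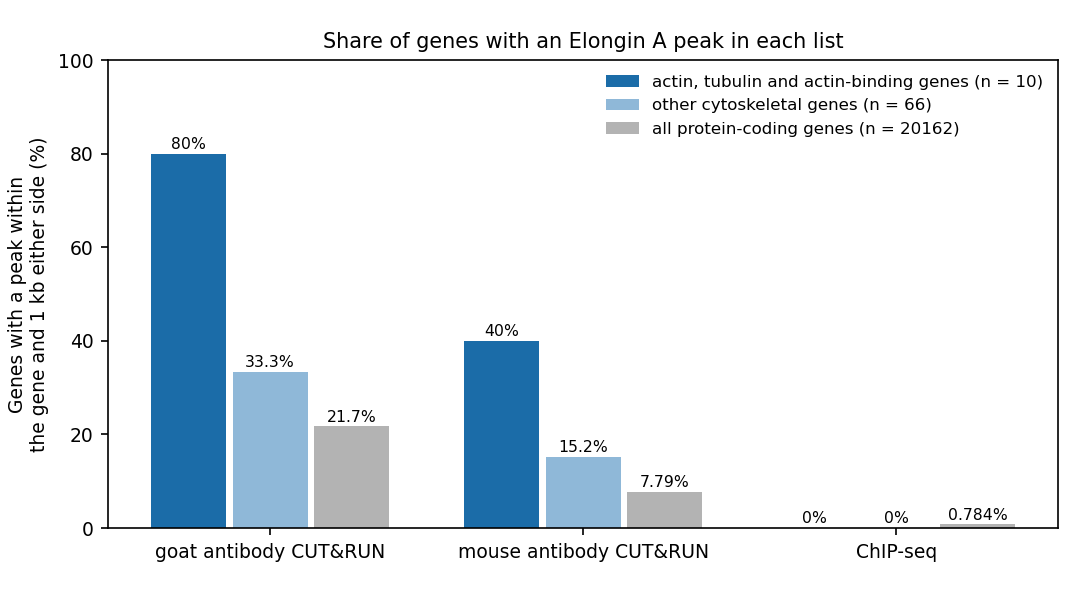
Percent of genes (vertical axis) with at least 1 Elongin A peak within the gene and 1 kb either side, for each of the 3 lists (horizontal axis). Bars show the 10 actin, tubulin and actin-binding genes, 66 other cytoskeletal genes and all 20162 protein-coding genes, and the goat antibody bars stand at 80%, 33.3% and 21.7%.

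The peaks lay in different parts of the genes, and some genes had peaks in more than 1 part. The centre of each peak was placed in the promoter (1000 bp upstream to 100 bp downstream of the TSS of the canonical transcript), in the end window (100 bp upstream to 1000 bp downstream of the transcript end), in the gene body between them, or outside. Of the 12 goat antibody peaks, 2 were in a promoter, 5 in a gene body, 4 in an end window and 1 outside the canonical windows. The promoter peaks lay at ACTG1 and TUBA1B, and 5.95% of protein-coding genes had a goat antibody peak centre in the promoter. The gene body peaks lay at TUBA1B and TUBA1C, and 14.1% of protein-coding genes had one there. The end peaks lay at TUBB4B, CFL1, PFN1 and TMSB10, 4 of 10 genes, against 1.53% of protein-coding genes. Of the 5 mouse antibody peaks, 1 was in a promoter (CFL1), 3 in a gene body (TUBA1B and TUBA1C) and 1 in an end window (TUBB4B).

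**Figure D2:**
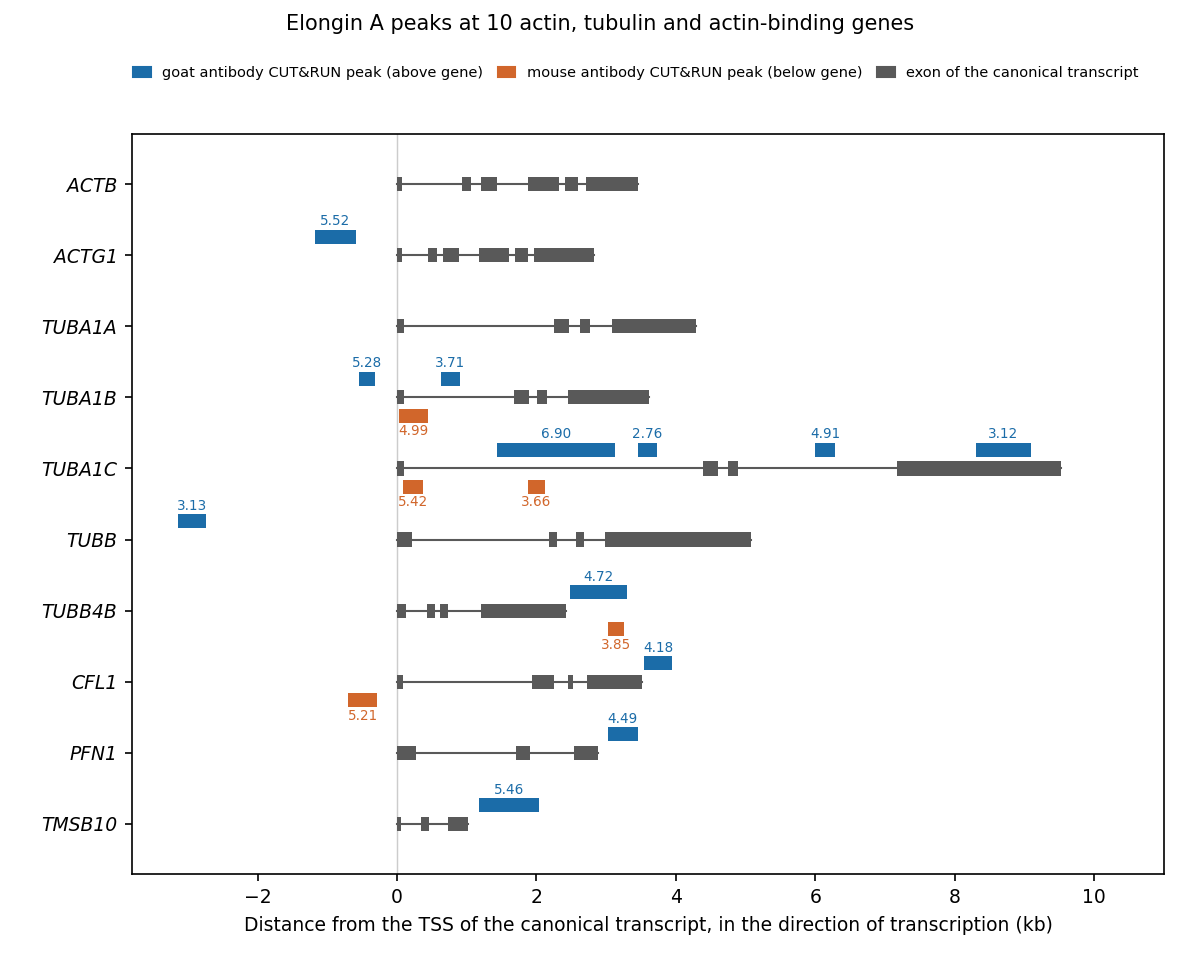
Elongin A peaks (bars) at the 10 genes, drawn to scale by distance in kb from the TSS of the canonical transcript, with transcription running from left to right and grey boxes for exons. Goat antibody peaks are above and mouse antibody peaks below each gene, each with its fold enrichment: TUBB4B, CFL1, PFN1 and TMSB10 have a goat antibody peak past the transcript end, and ACTB and TUBA1A have none.

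The sequences at the 4 end peaks are shown first, because these peaks lie past the last exon of the canonical transcript and within or near other genes. Each line gives 101 bases of hg19 around the summit of the goat antibody peak, 5′ to 3′ on the strand of the cytoskeletal gene. The capitals mark the 32 bp at the summit whose copies in the genome were counted, and each of the 4 occurred once.
TUBB4B end, goat antibody, hg19 chr9:140138873-140138973, plus strand: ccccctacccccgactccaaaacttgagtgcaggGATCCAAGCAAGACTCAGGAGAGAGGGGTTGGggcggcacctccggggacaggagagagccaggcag
CFL1 end, goat antibody, hg19 chr11:65622019-65622119, minus strand: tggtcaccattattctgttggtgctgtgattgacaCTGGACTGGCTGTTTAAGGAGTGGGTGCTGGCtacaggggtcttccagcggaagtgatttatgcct
PFN1 end, goat antibody, hg19 chr17:4848516-4848616, minus strand: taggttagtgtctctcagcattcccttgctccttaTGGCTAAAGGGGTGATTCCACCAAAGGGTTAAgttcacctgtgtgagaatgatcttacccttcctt
TMSB10 end, goat antibody, hg19 chr2:85134337-85134437, plus strand: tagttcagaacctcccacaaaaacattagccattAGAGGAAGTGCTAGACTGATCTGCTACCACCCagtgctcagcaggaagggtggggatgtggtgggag

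The windows of the alpha-tubulin genes are shown because both antibodies gave peaks there at different positions. In TUBA1B the goat antibody summits lay on both sides of the mouse antibody summit, and in TUBA1C the leading goat antibody peak and a mouse antibody peak overlapped within intron 1. The capitals again mark the 32 bp at the summit, and all 5 occurred once in the genome.
TUBA1B upstream, goat antibody, hg19 chr12:49525645-49525745, minus strand: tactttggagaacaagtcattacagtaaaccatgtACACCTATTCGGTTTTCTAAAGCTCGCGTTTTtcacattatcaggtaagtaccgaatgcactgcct
TUBA1B intron 1, goat antibody, hg19 chr12:49524385-49524485, minus strand: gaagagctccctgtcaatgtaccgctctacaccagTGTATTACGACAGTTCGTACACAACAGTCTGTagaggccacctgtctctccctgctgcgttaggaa
TUBA1B intron 1, mouse antibody, hg19 chr12:49524952-49525052, minus strand: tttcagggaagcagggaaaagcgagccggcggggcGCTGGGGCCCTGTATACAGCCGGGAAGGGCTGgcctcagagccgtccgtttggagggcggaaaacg
TUBA1C intron 1, goat antibody, hg19 chr12:49661703-49661803, plus strand: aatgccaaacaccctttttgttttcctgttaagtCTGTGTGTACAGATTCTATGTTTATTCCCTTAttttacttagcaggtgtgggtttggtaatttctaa
TUBA1C intron 1, mouse antibody, hg19 chr12:49660745-49660845, plus strand: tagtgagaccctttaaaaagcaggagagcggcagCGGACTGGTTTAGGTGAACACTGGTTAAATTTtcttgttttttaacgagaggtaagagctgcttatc

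ACTB encodes beta-actin and had no peak within 1 kb in any list. Its canonical transcript lies at chr7:5566779-5570232 on the minus strand. The nearest goat antibody peak, at chr7:5563922-5564160, was 2619 bp from the canonical transcript and 1880 bp from the annotated gene. Its summit lay 2832 bp past the transcript end, with a fold enrichment of 4.34, a −log10 q-value of 3.38 and rank 4203 of 8720. The gap exceeded the limit of 1 kb and was within 5 kb. The nearest mouse antibody peak was 97195 bp away and the nearest ChIP-seq peak 4551507 bp away.

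ACTG1, the gamma-actin gene (chr17:79476997-79479825, minus strand), had 1 goat antibody peak of 597 bp at chr17:79480411-79481007. The fold enrichment was 5.52, the −log10 q-value 9.35 and the rank 1743 of 8720. The summit was at −850 bp from the TSS of the canonical transcript, but at 70 bp from the TSS of another ACTG1 transcript that starts farther upstream. An unnamed lncRNA gene on the other strand, ENSG00000229848, starts nearby, with the summit at −398 bp from its TSS, and the summit was 586 bp from the start of the pseudogene RP13-766D20.1. The nearest mouse antibody peak was 345327 bp from ACTG1.

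The promoter of ACTG1 is shown because it holds the element named above. On either strand of the 200 bp upstream of its TSS, the CArG box was found once, starting at −94, and 0.947% of 20162 promoters held one in the same window. In all, 2 of the 10 promoters held a CArG box. The other was that of ACTB, which had no peak, and its CArG box started at −62. The ACTG1 window was not covered by a peak. Capitals mark each match to the elements searched on both strands. These are the CArG box, the CCAAT box, the TATA box spelled as TATAAA, and the GC box spelled as GGGCGG, whose copies can overlap each other. The bases next to the TSS that belong to exons of other transcripts are left off.
ACTG1 promoter, hg19 chr17:79479878-79480025, minus strand: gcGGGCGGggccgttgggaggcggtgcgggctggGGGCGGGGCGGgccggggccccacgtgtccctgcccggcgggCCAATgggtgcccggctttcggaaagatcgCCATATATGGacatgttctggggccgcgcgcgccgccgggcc

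The alpha-tubulin gene TUBA1A (chr12:49578578-49582863, minus strand) had no peak in any list. The nearest goat antibody peak was 52853 bp from its canonical transcript and the nearest mouse antibody peak 53424 bp away. Its neighbours TUBA1B and TUBA1C on the same chromosome had peaks in both CUT&RUN lists, 2 and 4 with the goat antibody and 1 and 2 with the mouse antibody.

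TUBA1B (chr12:49521565-49525178, minus strand) had goat antibody peaks on either side of its TSS. The upstream peak, of 236 bp at chr12:49525490-49525725, had its summit at −517 bp from the TSS, a fold enrichment of 5.28, a −log10 q-value of 5.73 and rank 2066. The peak in intron 1, of 277 bp at chr12:49524272-49524548, had its summit at 743 bp, a fold enrichment of 3.71, a −log10 q-value of 7.71 and rank 6185. By q-value the order was the opposite, with rank 1907 for the intron 1 peak and 3086 for the upstream peak. The mouse antibody peak, of 416 bp at chr12:49524739-49525154, had its summit at 176 bp, within intron 1, with a fold enrichment of 4.99, a −log10 q-value of 4.53 and rank 638 of 2338. It overlapped neither goat antibody peak. The antisense lncRNA gene TUBA1B-AS1 starts within this stretch, with the mouse antibody summit at 48 bp from the nearest of its TSSs, so the peaks cannot be given to 1 of the 2 genes.

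TUBA1C (chr12:49658865-49668383, plus strand), the longest of the 10 canonical transcripts, had the most peaks, and 26.4% of its canonical span with 1 kb either side was covered by goat antibody peaks. The leading goat antibody peak, of 1697 bp at chr12:49660301-49661997, was both the widest and the highest of the 12. It lay in intron 1 with its summit at 2888 bp from the TSS, a fold enrichment of 6.90, a −log10 q-value of 12.0 and rank 557 of 8720. The other 3 were lower: a fold enrichment of 2.76 in intron 1 (summit at 3613 bp, rank 8385), 4.91 in intron 3 (6226 bp, rank 2786) and 3.12 in the 3′ UTR of the last exon (8381 bp, rank 7767). The −log10 q-value was 2.83, 4.11 and 1.76 for these 3. The unnamed lncRNA gene ENSG00000258232 runs along TUBA1C on the opposite strand. The first 3 goat antibody summits lay within it, as did both mouse antibody summits described next, and the summit in the last exon was at −157 bp from its TSS. As at TUBA1B, these peaks cannot be given to 1 of the 2 genes.

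The mouse antibody list placed its higher TUBA1C peak at the start of the gene, where the goat antibody list had none. This peak, of 291 bp at chr12:49658950-49659240, had its summit at 102 bp from the TSS in exon 1, a fold enrichment of 5.42, a −log10 q-value of 3.84 and rank 367 of 2338. Its summit was also at −428 bp from the TSS of ENSG00000258101, another unnamed lncRNA gene of the opposite strand. The second, of 240 bp at chr12:49660742-49660981, had its summit in intron 1 at 1930 bp, a fold enrichment of 3.66, a −log10 q-value of 1.47 and rank 1871. It lay within the leading goat antibody peak, although the summits of both were in different parts of it.

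The beta-tubulin gene TUBB (chr6:30688129-30693199, plus strand) had 1 goat antibody peak that was far from its canonical transcript. This peak, of 416 bp at chr6:30684982-30685397, had its summit at −3070 bp from the canonical TSS and at −153 bp from the TSS of another TUBB transcript. The summit was at −1 bp from the TSS of MDC1, a mediator of the DNA damage checkpoint that is transcribed in the opposite direction. The fold enrichment was 3.13, the −log10 q-value 3.63 and the rank 7739 of 8720. The nearest mouse antibody peak was 102301 bp from TUBB. The nearest ChIP-seq peak to any of the 10 genes was also here, 16475 bp from TUBB, with a fold enrichment of 15.4.

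TUBB4B (chr9:140135739-140138159, plus strand), another beta-tubulin gene, had an end peak in both CUT&RUN lists. The goat antibody peak, of 811 bp at chr9:140138226-140139036, had its summit 764 bp past the transcript end, a fold enrichment of 4.72, a −log10 q-value of 3.52 and rank 3254. The mouse antibody peak, of 224 bp at chr9:140138772-140138995, had its summit 795 bp past the end, a fold enrichment of 3.85, a −log10 q-value of 1.54 and rank 1680 of 2338. The 2 peaks overlapped, and both summits lay within FAM166A, which is transcribed toward TUBB4B from the opposite strand.

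CFL1 (chr11:65622144-65625651, minus strand) had a peak in each CUT&RUN list at opposite ends. The goat antibody peak, of 398 bp at chr11:65621707-65622104, had its summit 75 bp past the transcript end, a fold enrichment of 4.18, a −log10 q-value of 2.79 and rank 4683. This summit lay within the annotated span of SNX32, a sorting nexin gene of the opposite strand, 897 bp past the end of its canonical transcript. The mouse antibody peak, of 421 bp at chr11:65625933-65626353, had its summit at −366 bp from the TSS, a fold enrichment of 5.21, a −log10 q-value of 4.57 and rank 459 of 2338. The divergent gene MUS81, an endonuclease subunit, has its canonical TSS on the far side, with the summit at −1887 bp from it, and another MUS81 transcript starts 1420 bp before the summit.

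The monomer-binding genes PFN1 and TMSB10 had a goat antibody peak past the end and no mouse antibody peak. At PFN1 (chr17:4848947-4851825, minus strand) the peak of 429 bp, at chr17:4848375-4848803, had its summit 381 bp past the transcript end. Its fold enrichment was 4.49, its −log10 q-value 5.77 and its rank 3814. The convergent gene RNF167, which encodes a ubiquitin ligase, ended 49 bp before this summit, so the summit lay past the ends of both genes. Another RNF167 transcript starts 891 bp before the summit.

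At TMSB10 (chr2:85132780-85133795, plus strand), the shortest of the 10, the peak of 869 bp at chr2:85133952-85134820 had its summit 592 bp past the transcript end. Its fold enrichment was 5.46, its −log10 q-value 10.5 and its rank 1871, or 905 by q-value. A transcript of TRABD2A, a gene of the opposite strand, starts nearby, and the summit was at −255 bp from its TSS. The nearest mouse antibody peak was 13428 bp from TMSB10 and 19031 bp from PFN1. Whether the end peaks belong to the cytoskeletal gene or to the neighbour was not tested.

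Within the goat antibody list the 12 peaks were of middling strength. The lowest fold enrichment was 2.76, the highest 6.90 and the median 4.61, beside a median of 4.32 over all 8720 peaks, which reached 43.6. Among them 1 was in the highest 10% of the list and 7 in the upper 50%. Their median width was 422.5 bp, beside 362 bp for the list. The 5 mouse antibody peaks had fold enrichments between 3.66 and 5.42 and a median of 4.99, beside 4.36 over the list, and 3 of 5 were in the upper 50% and 0 in the highest 10%.

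**Figure D3:**
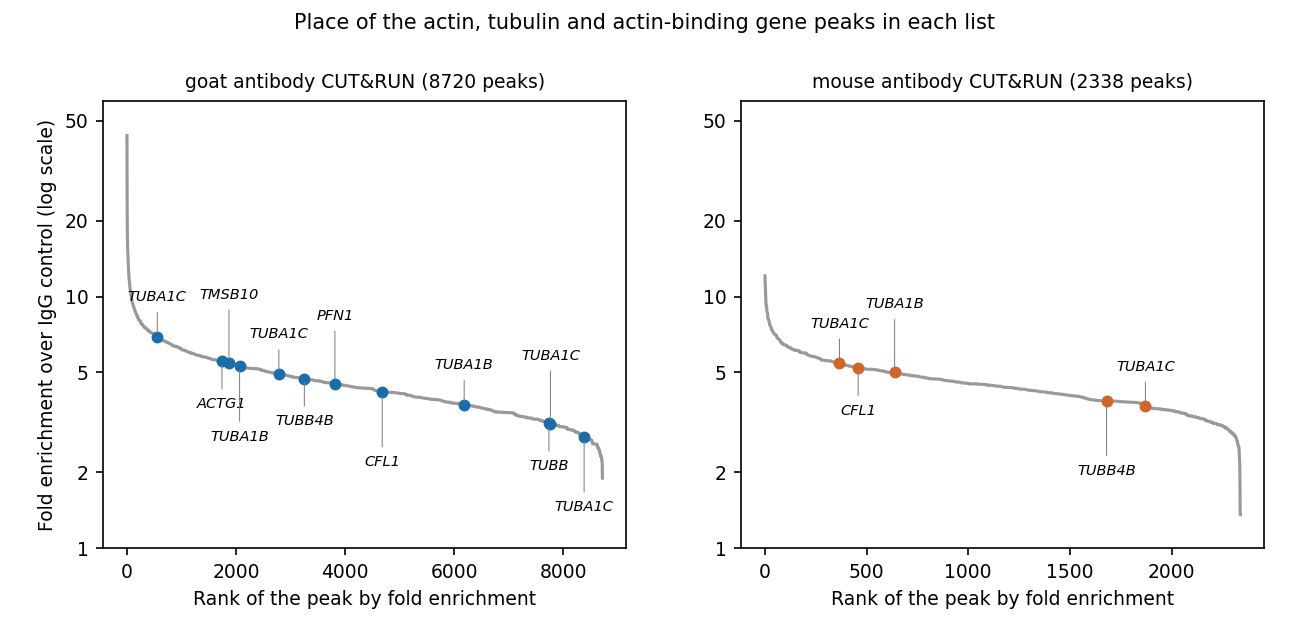
Fold enrichment over the local control background (vertical axis, log scale) against rank (horizontal axis) for all peaks of the goat antibody list (left) and the mouse antibody list (right), as grey lines. Points mark the 12 and 5 peaks at the named genes, of which the TUBA1C peak at 6.90 has the best rank, 557 of 8720.

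Overlap between the 2 CUT&RUN lists was limited over all peaks, and the shares at these genes were not lower. Of the 12 goat antibody peaks, 2 overlapped a mouse antibody peak by at least 1 bp (16.7%), those at TUBA1C and TUBB4B, beside 726 of all 8720 (8.33%). Of the 5 mouse antibody peaks, 2 overlapped a goat antibody peak (40%), beside 757 of all 2338 (32.4%). TUBA1B and CFL1 were therefore shared between the lists as genes but not as positions.

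Processed pseudogenes and, for the TUBA1 genes, family members with much the same coding sequence bear on what short reads can show. A word of 32 bp was taken as a stretch that could be placed if it occurred once in hg19. Within coding exons 18.4% of the words occurred once in TUBA1B, 28.9% in TUBA1A, 30.5% in TUBA1C and 49.7% in TUBB, against 63.8% in ACTB and 80.7% in CFL1. Of the coding words of TUBA1A, 59.8% were also in TUBA1B and 52.5% in TUBA1C, whereas ACTB shared 6.80% with ACTG1 and TUBB 0.662% with TUBB4B. In introns the share of words that occurred once was 79.5% in TUBA1C and 90.5% to 100% in the others. In the 1 kb upstream it was 83.7% in TUBA1C and 100% in the other 9 genes. In the 1 kb downstream it ranged from 80.6% in TUBA1A to 100% in ACTG1, TUBB4B, CFL1, PFN1 and TMSB10.

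Of the 17 summits, 1, that of the mouse antibody peak in exon 1 of TUBA1C, lay in a coding exon of the 10 canonical transcripts. That summit was at the last base of the start codon, ATG, so it lay at the very beginning of the coding sequence. The share of all summits that lay in coding exons was not counted, so this count cannot be called low. The 32 bp at each of the 17 summits occurred once in the genome, as they did for 96.8% of all goat antibody and 94.7% of all mouse antibody summits. The annotation holds 84 pseudogenes of the 10 genes, among them 21 of ACTG1, 12 of ACTB and 13 of the TUBA1 genes. None of the 3 lists had a peak at any of them, and over all 15399 pseudogenes 60 had a goat antibody peak and 29 a mouse antibody peak. How reads that match several copies were handled is not given in the sources used here, and its part in the positions of the summits was not tested.

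**Figure D4:**
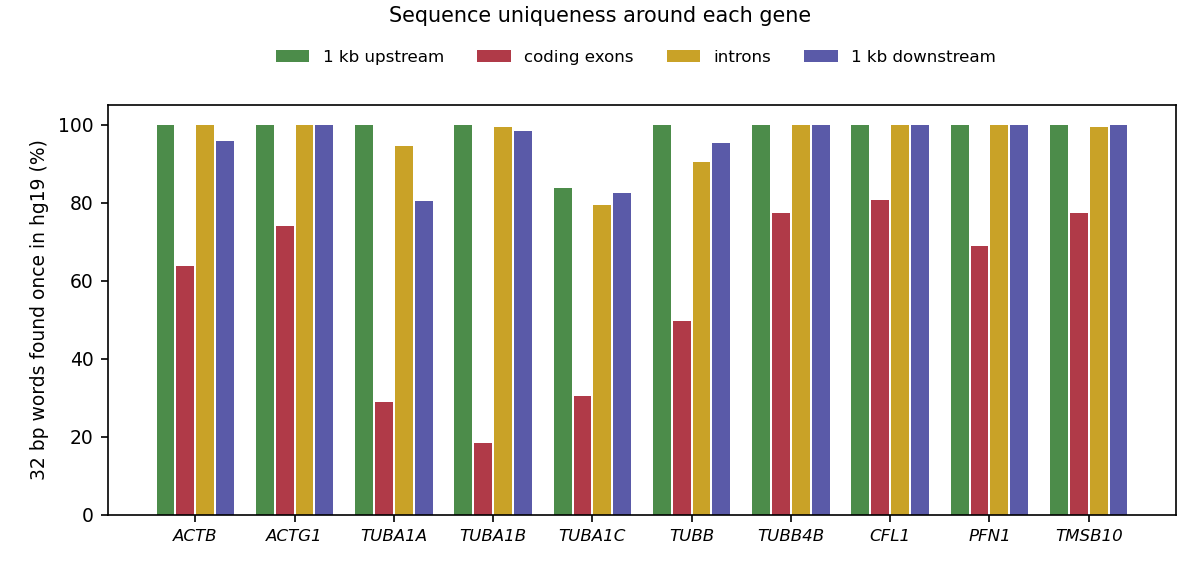
Percent of 32 bp words that occur once in hg19 (vertical axis) in the 1 kb upstream, coding exons, introns and 1 kb downstream of the canonical transcript of each gene (horizontal axis). The coding bars of TUBA1A, TUBA1B and TUBA1C stand at 28.9%, 18.4% and 30.5%, below the bars of the other parts of the same genes.

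Other promoter letters were counted in the same windows. CCAAT was in 6 of the 10 promoters and in 30.3% of all, and GGGCGG in 7 of 10 and in 55.9% of all. All 7 genes with GGGCGG had a goat antibody peak, as did 8 of the 10 in total, among them TUBB4B without GGGCGG. How many of all genes with GGGCGG had a peak was not counted, so no link between these letters and peaks can be drawn. TATAAA was in 1 of 10, ACTB (starting at −29), and in 7.83% of all. The letters TATATAA, added after the sequences were seen, were in TUBA1C (starting at −33), TUBB4B (−29) and TMSB10 (−32), beside 1.85% of all. The median GC content was 69.5% over the 10 promoters and 64.5% over all. The 3 promoters with TATATAA are shown with the same letters and TATATAA in capitals, and none was covered by a peak of any list.
TUBA1C promoter, hg19 chr12:49658665-49658864, plus strand: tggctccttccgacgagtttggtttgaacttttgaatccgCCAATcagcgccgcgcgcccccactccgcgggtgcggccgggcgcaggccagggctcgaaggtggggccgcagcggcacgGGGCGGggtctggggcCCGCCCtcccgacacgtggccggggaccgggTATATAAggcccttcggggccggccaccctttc
TUBB4B promoter, hg19 chr9:140135539-140135738, plus strand: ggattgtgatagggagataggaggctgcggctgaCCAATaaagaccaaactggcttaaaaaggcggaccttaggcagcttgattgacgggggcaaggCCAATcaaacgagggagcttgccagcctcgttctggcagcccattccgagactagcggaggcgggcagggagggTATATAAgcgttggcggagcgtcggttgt
TMSB10 promoter, hg19 chr2:85132580-85132779, plus strand: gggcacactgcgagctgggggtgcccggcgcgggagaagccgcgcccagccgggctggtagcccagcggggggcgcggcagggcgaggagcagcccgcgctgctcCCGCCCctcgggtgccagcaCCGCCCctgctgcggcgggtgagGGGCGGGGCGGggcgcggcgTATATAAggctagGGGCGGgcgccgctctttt

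A list of 66 other genes of the actin and microtubule cytoskeleton gives the surroundings of these genes. A goat antibody peak was at 22 of the 66 (33.3%), a mouse antibody peak at 10 (15.2%) and a ChIP-seq peak at 0. By category, genes for filament-binding proteins had goat antibody peaks in 8 of 13, tubulin folding cofactors in 3 of 5, subunits of the Arp2/3 complex in 2 of 9, and genes for other proteins that bind monomers or sever filaments in 3 of 12. The other actin genes, which include the muscle forms, had a peak in 0 of 5. The other alpha-tubulin genes had one in 1 of 5 and the other beta-tubulin genes in 1 of 7.

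Of the 66, 9 had a peak in both CUT&RUN lists. Of the 8 described here, the highest was MYH9, non-muscle myosin IIA, with 6 goat antibody peaks, of which the strongest, at chr22:36765421-36766831 in the gene body, had a fold enrichment of 11.6 and rank 43 of 8720. The tropomyosin gene TPM1 followed with 8.69 and rank 155. ARPC5L of the Arp2/3 complex (6.32), the actin cross-linker ACTN4 (6.32, with 8 peaks) and the microtubule-associated protein gene MAP4 (5.57) came next, followed by the tubulin genes TUBA4A (4.97), TUBE1 (4.32) and TUBB3 (3.68). Several of these are long, with canonical transcripts of 106687 bp in MYH9 and 165722 bp in MAP4. Of the 8, TUBA4A was the one whose canonical transcript, at 4209 bp, was within the range of the 10 genes. Its goat antibody peak was in the end window. MYL6 (3221 bp) and PFN2 (5992 bp), also among the 66 and within that range, had peaks in the goat antibody list alone. Their strongest peaks were in the gene body. The other genes of the 66 within that range had no peak in any list. In the mouse antibody list TUBA4A had a fold enrichment of 6.11 and rank 150, above all 5 peaks at the 10 genes.

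Gene markers of cell types were also looked up, but a peak list reports occupancy and not RNA, so they cannot identify the cell line. Among 10 colon epithelial markers, 5 had a goat antibody peak (EPCAM, KRT8, KRT18, CDX2 and CDH1) and 3 a mouse antibody peak. The shares over all protein-coding genes were 21.7% and 7.79%. None of 5 fibroblast markers had a peak, 1 of 3 leukocyte markers did (PTPRC, in both CUT&RUN lists), and the 1 endothelial marker matched to the annotation had none.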

How the data were processed

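Per the study's methods, the authors mapped read pairs with Bowtie2 to hg19, deleted duplicates with Picard, and ran MACS2 with its defaults against IgG or input. A mapping-quality filter and the treatment of the 2 goat antibody replicates are not given in the sources used here. The deposited fold enrichment is the authors' ratio to local background in the control, and the deposited −log10 q-value is that of the authors' peak caller. The annotation was GENCODE, release 44, on GRCh37 (hg19), from which sequences were also read. Positions count from 1. Words of 32 bp were counted on both strands of the genome. Overlaps, windows and word counts were tested on simulated data. The members and gene lists were chosen with earlier results of these data known. Of the 66 other genes, those with a peak in at least 2 lists were named, except 1 that is not reported here, as were neighbours with a TSS within 1 kb of a summit. Neighbours whose span held a summit, and MYL6 and PFN2 for their length, were added after their values were seen. Alternatives covered the flank, the gene span, thresholds, windows and overlaps. Python 3.11.15, numpy 2.4.6, pandas 2.3.3, pysam 0.24.0 and matplotlib 3.10.9 were used.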

Additional observations from a re-analysis of the deposited data

How the results depend on the processing

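Of 76 alternative values of the counts and shares, 61 were within 1.5 times the value reported. The ChIP-seq count at the 10 genes was 0 in all of its alternatives, and these values are among the 61. Except for the flank of 5 kb, these settings can only remove peaks from the genes. A ChIP-seq count of 0 could therefore not change in them, and its constancy there shows nothing. With no flank, 5 of the 10 genes had a goat antibody peak, against 18.6% of protein-coding genes, and TUBB4B, PFN1 and TMSB10 were lost. With a flank of 5 kb, ACTB was added and 9 genes had one, against 24.9% of protein-coding genes. With a fold enrichment of at least 5, 4 genes and 4 goat antibody peaks, and 2 genes and 2 mouse antibody peaks, remained. With a q-value under 0.01 or under 0.001, 3 mouse antibody peaks remained, and TUBB4B was lost from that list. The share of all protein-coding genes was not recounted at these fold enrichment and q-value thresholds. With promoter and end windows of 500 bp either side, 1 goat antibody peak was in a promoter, 3 were in an end window and 3 were outside. With windows of all transcripts, 4 were in a promoter, 3 in a gene body, 5 in an end window and 0 outside. The shares of all protein-coding genes by position were not recounted for these windows or for short genes. With summits within 500 bp as the rule, 1 goat antibody peak matched a mouse antibody peak. Among genes with short canonical transcripts, a setting chosen after seeing the data, the share with a peak was 12.6% for the goat and 4.15% for the mouse antibody. Ranked by q-value in place of fold enrichment, 9 of 12 best ranks were within 1.5 times, and those of TUBB4B (5787) and TMSB10 (905) in the goat antibody list and TUBA1C (757) in the mouse antibody list were not. The construction of each setting accounts for the changes in counts, as fewer peaks or other windows enter. No replicate could be left out, because no list has a value per replicate. No paired analysis was possible because the results come from no test. The unknown depth limits what the absence of a peak at ACTB and TUBA1A can show.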
